A study of Mus musculus with 6 samples.

Results

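The genes described here encode the complement components, the clotting factors and the inhibitors that hold both cascades in check, as transcribed in mouse liver. They were 42 genes listed by symbol, and 38 of them, among 12393 genes on the array, had a probe set that the platform annotation assigned to that gene alone. The measured genes were 14 of 17 complement components, 15 of 16 clotting and fibrinolysis factors, and 9 of 9 inhibitors and regulators. No probe set used here carried the symbol of C3, Cfd or Cpb2, and these genes were not analysed here. C4b shared its probe set with C4a. C1s was found under its current symbol C1s1.

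Liver RNA came from male C57BL/6J mice that drank either distilled water, the control group, or drinking source water for 90 d. Each group had 10 mice, and the livers of 9 were combined in threes, which gave 3 RNA pools and 3 one-colour arrays per group. All mice shared the strain, the sex and the 12-h light cycle, and the labels name no genotype and no added compound. The labels give neither the age of the mice nor what the source water contained.

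Most plasma complement and clotting proteins are made by hepatocytes and secreted as inactive precursors. In clotting, serine proteases activate one another until thrombin cuts fibrinogen into fibrin, which plasmin later dissolves. In complement, antibody complexes (the classical route), sugar patterns (the lectin route) or spontaneous turnover (the alternative route) lead to cleavage of C3, and the terminal components then assemble a pore in the target membrane. Serpins such as antithrombin, and cofactors such as protein S, restrain these proteases.

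Values are log2 signals per probe set, and each difference is source water minus control on that scale, so that 1 unit is a doubling. The fit was limma over all 22626 probe sets with Benjamini-Hochberg adjustment, and a gene is represented by its probe set of highest mean signal. Array medians lay between 5.79 and 5.86. Hepatocyte markers were high, with Alb at 14.91 and Apoa1 at 14.91, whereas of the 5 adipose markers measured, Lep, Adipoq, Cidec and Retn lay at 3.79, 3.81, 4.15 and 5.53. The other one, Car3, a carbonic anhydrase that is also abundant in mouse liver, lay at 14.23. In these bulk samples fewer cells of a type and less RNA per cell cannot be told apart. All 38 genes had signals above the median probe set, from 7.21 for F8 to 14.36 for Fgg. Signals of different probe sets depend on their probes and are not amounts that rank the genes. Whether the brightest signals were compressed near the top of the scale was not tested.

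**Figure D1:**
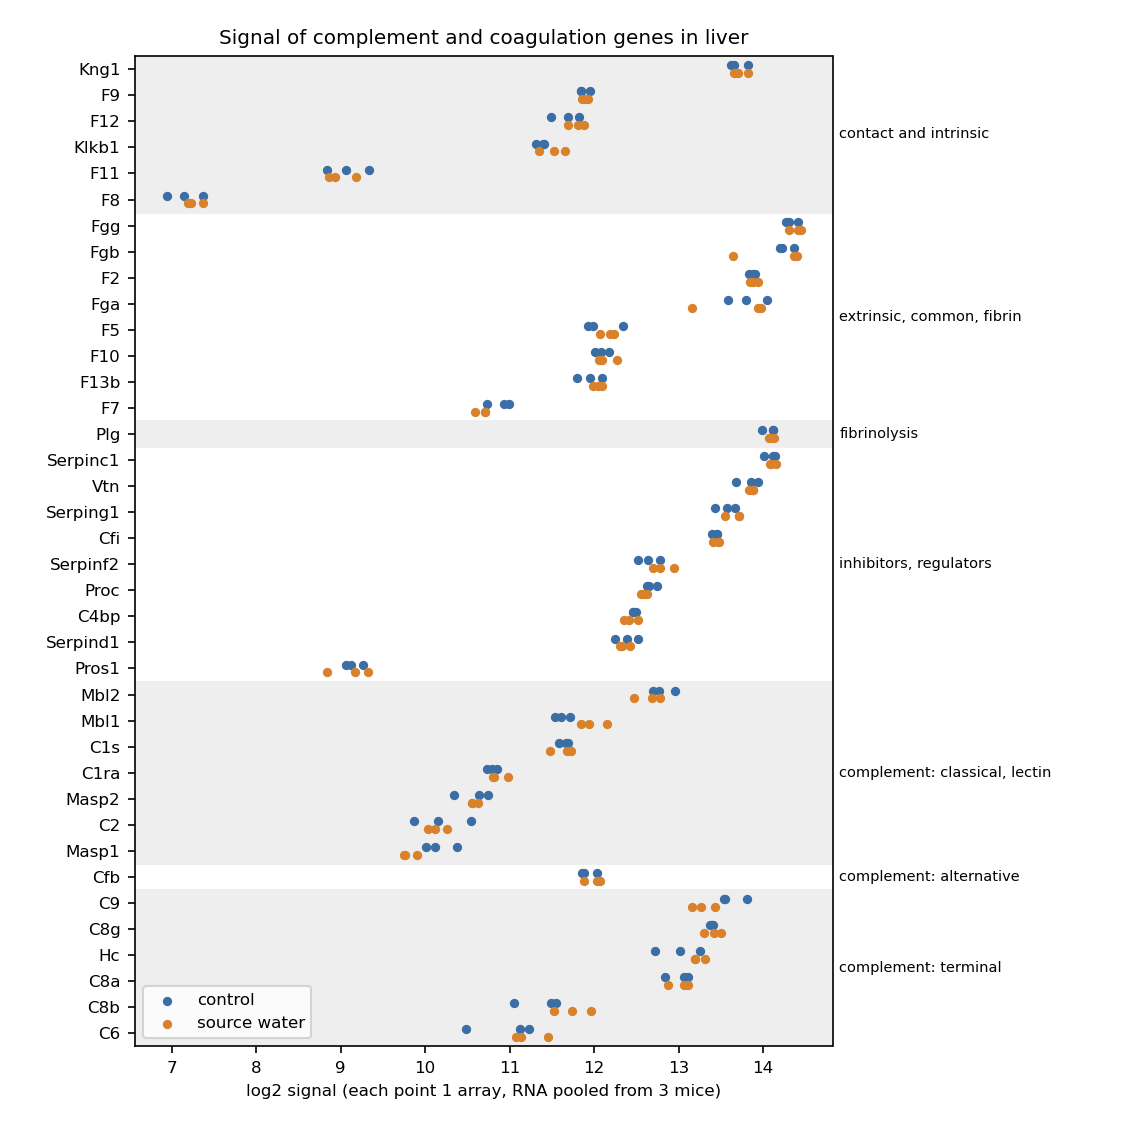
Log2 signal of each of the 38 genes (rows, grouped by role) in the 3 control arrays (blue) and the 3 source water arrays (orange), each point 1 array of pooled RNA. For most genes the colours overlap. They lie apart for Mbl1, Masp1, C9 and F7, and Fga and Fgb have 1 low source water array each.

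The message levels of this system were close to those of control after 90 d of source water. Of the 38 genes, 0 passed the limma test at an adjusted p of 0.05, against 0.0323% of all genes, and 0 differed by 1.5-fold, against 2.2% of all genes. At an unadjusted p of 0.05, 3 genes passed, which is 7.89% of the 38 genes against 6.76% of all genes. They were 1 higher gene (Mbl1), where 4.16% of all genes passed on the higher side, and 2 lower genes (Masp1 and C9), where 2.6% of all genes passed on the lower side. The groups did not overlap for 4 of 38 genes (10.5%), against 11.5% of all genes. Both shares were near their background. The median difference was 0.0175 over the 38 genes and -0.0016 over all genes, and 25 were higher and 13 lower.

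The size of change that these arrays leave room for was read from the 95% interval of each difference. For 31 of 38 genes (81.6%) the whole interval lay within 1.5-fold in either direction, a log2 difference of 0.585, as it did for 81.2% of all genes. The intervals of Mbl1, Masp1, C9, C8b, C6, Fga and Fgb reached past it. The median size of the difference, regardless of sign, was 0.119 in the 14 complement genes, 0.0856 in the 15 clotting and fibrinolysis genes and 0.042 in the 9 inhibitors, beside 0.0992 in all genes. The signed medians were 0.0152, 0.0294 and 0.0147. All 3 genes with an unadjusted p under 0.05 were complement genes, which is 21.4% of that class against 6.76% of all genes. The share was 0% in the clotting class and in the inhibitors. The groups did not overlap for 21.4% of the complement, 6.67% of the clotting and 0% of the inhibitor genes, against 11.5% of all genes. Whether the 3 classes differ was not tested.

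**Figure D2:**
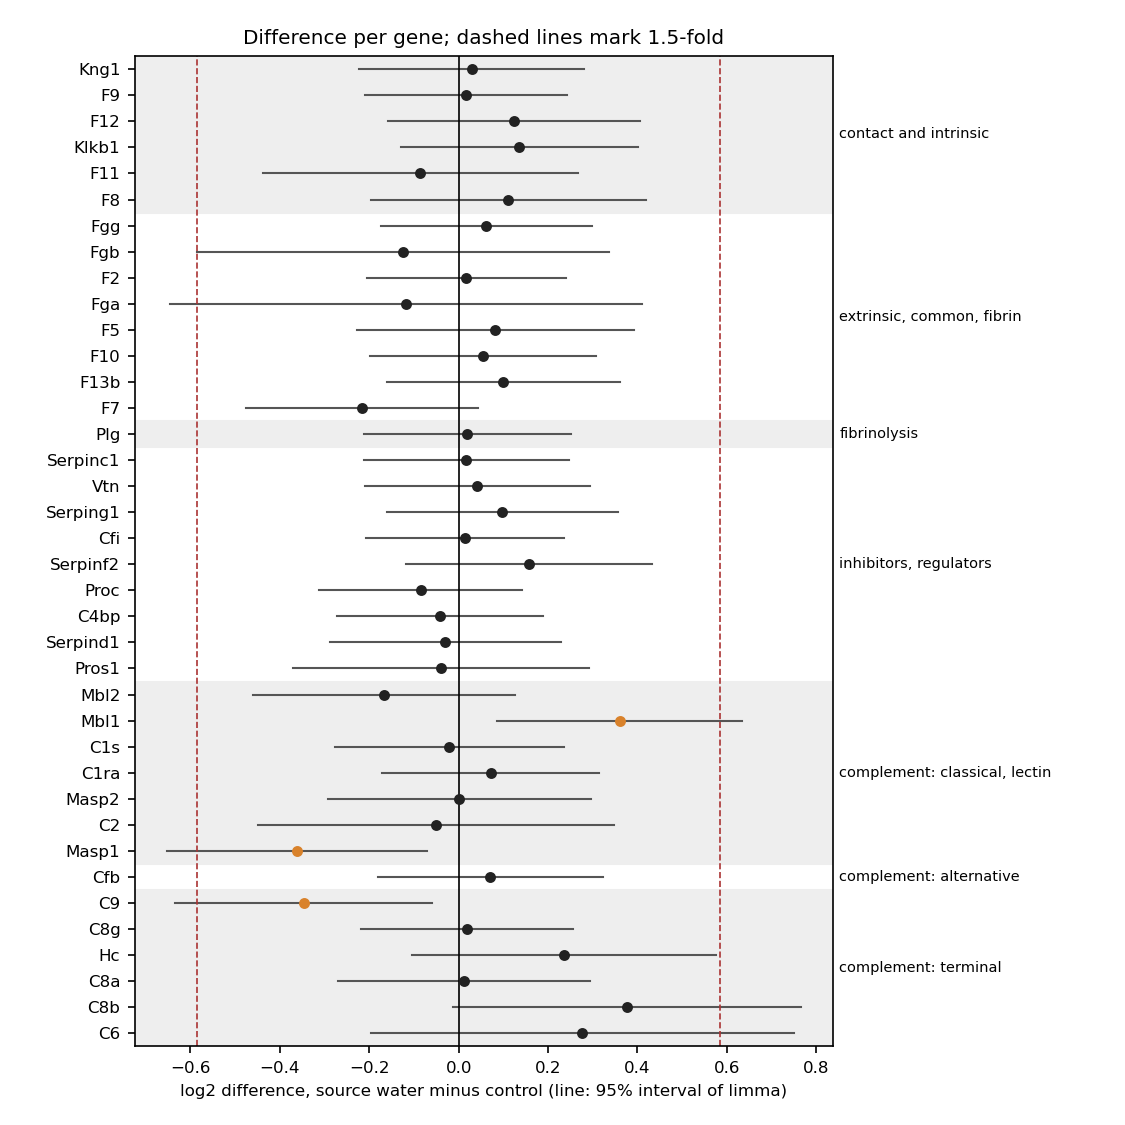
Log2 difference of each gene, source water minus control, with the 95% interval of the limma fit. Orange points have an unadjusted p under 0.05, 0 genes pass after adjustment, and dashed lines mark 1.5-fold. Intervals of the inhibitors all lie inside the dashed lines, and those of Mbl1, Masp1, C9, C8b, C6, Fga and Fgb cross one.

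The lectin route held the members with the smallest unadjusted p. Mbl1 encodes mannose-binding lectin A, a collectin that recognises microbial sugars. Its signal was 11.72, 11.53 and 11.61 in control pools 1 to 3 and 12.15, 11.85 and 11.94 in source water pools 1 to 3. Every source water pool lay above every control pool. The difference was 0.36 ± 0.12 (SE, n = 3 per group; limma unadjusted p = 0.0161, adjusted p = 0.603), a 1.28-fold difference, and the unadjusted p was 0.0689 without source water replicate 1. Mbl2, the second mouse collectin of this route, stood at 12.77, 12.70 and 12.96 in control and 12.47, 12.78 and 12.68 in source water. Its groups overlapped, with a difference of -0.17 ± 0.13.

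Masp1 encodes proteases that circulate bound to these lectins, and alternative splicing of the gene yields MASP-1, MASP-3 and a truncated protein without a protease domain. Its probe set of highest signal read 10.11, 10.38 and 10.01 in control and 9.76, 9.91 and 9.75 in source water. All source water pools lay below all control pools, with a difference of -0.36 ± 0.13 (limma unadjusted p = 0.0211, adjusted p = 0.659). Of the 6 runs that left out 1 array each, 3 gave an unadjusted p above 0.05, namely 0.0652 when control pool 2 was dropped, 0.0641 for source water pool 1 and 0.0583 for source water pool 3 (limma). A second probe set, the third panel of its plot, differed the other way, and it may also bind related transcripts. It read 7.68, 7.57 and 7.81 in control and 7.99, 8.07 and 8.10 in source water, and every source water pool lay above every control pool. This difference was 0.36 ± 0.11 (limma unadjusted p = 0.00991, adjusted p = 0.521). The other three of its 5 probe sets overlapped between the groups, with differences of 0.08, 0.07 and -0.06, and the mean of the 5 differed by 0.02. The annotation used here names the gene and not the transcript that each probe set reads. Masp2, the lectin-bound protease that cleaves C4 and C2, differed by 0.00 ± 0.13 and -0.07 ± 0.10 with its 2 probe sets.

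**Figure D3:**
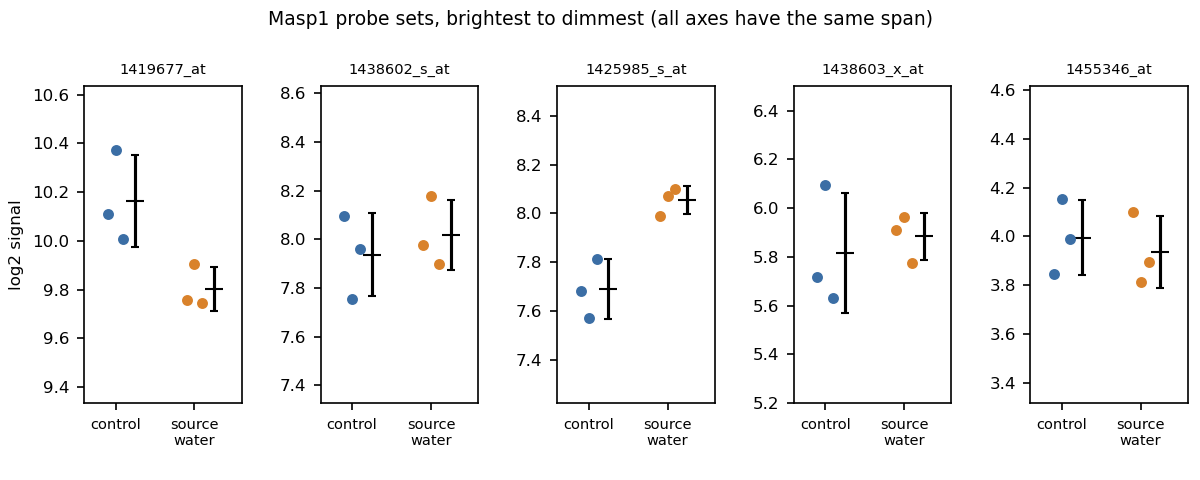
Log2 signal of the 5 Masp1 probe sets in control (blue) and source water (orange), each point 1 array, with the mean and SD (n = 3) in black. The axes differ in position but span the same range. The first panel lies lower and the third panel higher in all source water arrays, while the groups overlap in the other panels.

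The terminal components build the membrane attack complex, in which a fragment of C5 recruits C6, C7, C8 and then several copies of C9. C9 read 13.81, 13.54 and 13.55 in control and 13.43, 13.16 and 13.27 in source water. Every source water pool lay below every control pool, with a difference of -0.35 ± 0.13 (limma unadjusted p = 0.024, adjusted p = 0.687). In 3 of 6 runs that left out 1 array each, the unadjusted p was above 0.05, at 0.0881 without control pool 1, 0.0838 without source water pool 2 and 0.0548 without source water pool 3 (limma).

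C8b, which encodes the beta chain of C8, read 11.55, 11.49 and 11.05 in control and 11.96, 11.53 and 11.74 in source water. Its largest deviation was the low control pool 3, and source water pool 2 lay inside the control range. The difference of 0.38 ± 0.17 was the widest of the 38 genes in size (limma unadjusted p = 0.0563), and it was 0.22 without control replicate 3. The other chains of C8 hardly differed, at 0.01 ± 0.12 for C8a and 0.02 ± 0.10 for C8g.

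Hc encodes complement C5, the source of the inflammatory peptide C5a. It read 12.72, 13.26 and 13.02 in control and 13.32, 13.19 and 13.19 in source water. The control pools ran from below the source water pools to within their range, and the difference was 0.24 ± 0.15. Without control replicate 2 it was 0.37 (limma unadjusted p = 0.0265), and without control replicate 1 it was 0.10. C6 read 11.23, 11.12 and 10.48 in control and 11.46, 11.13 and 11.08 in source water, a difference of 0.28 ± 0.21 that rested on the low control pool 3. Without that pool it was 0.05.

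The proteases of the classical and alternative routes overlapped between the groups. C1ra and C1s, the proteases of the C1 complex, differed by 0.07 ± 0.11 and -0.02 ± 0.11, and the probe set of C1s may also bind related transcripts. C2, which supplies the protease of the classical convertase, differed by -0.05 ± 0.17. Cfb, its counterpart in the alternative route, differed by 0.07 ± 0.11. The probe set shared by C4a and C4b differed by 0.15 ± 0.11, and the one shared by C1ra and C1rb by 0.11 ± 0.12.

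Among the contact and intrinsic factors, which start clotting on charged surfaces and amplify it, 0 of 6 had an unadjusted p under 0.05. F12, factor XII, read 11.69, 11.83 and 11.50 in control and 11.89, 11.81 and 11.69 in source water (0.12 ± 0.12). Klkb1, plasma prekallikrein, read 11.32, 11.41 and 11.39 in control and 11.52, 11.66 and 11.35 in source water (0.14 ± 0.12). In both genes the highest pool was a source water pool, but the groups overlapped.

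F11, factor XI, read 9.33, 9.06 and 8.84 in control and 8.86, 8.94 and 9.18 in source water (-0.09 ± 0.15). F8, factor VIII, which liver endothelium rather than hepatocytes mainly produces, read 6.94, 7.37 and 7.14 in control and 7.19, 7.37 and 7.23 in source water (0.11 ± 0.13). Kng1, the kininogen that carries prekallikrein, and F9, the factor lacking in haemophilia B, differed by 0.03 ± 0.11 and 0.02 ± 0.10.

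In the extrinsic and common route F7, whose product meets tissue factor to start clotting, was the only clotting gene without overlap. It read 10.93, 10.99 and 10.73 in control and 10.71, 10.59 and 10.71 in source water. The closest control and source water pools were 10.73 and 10.71, and the difference was -0.22 ± 0.11 (limma unadjusted p = 0.0909). F10 and F5, the protease and cofactor that convert prothrombin, differed by 0.05 ± 0.11 and 0.08 ± 0.13, and the second probe set of F5 by -0.18 ± 0.19. F2, prothrombin, differed by 0.02 ± 0.10, with an interval from -0.21 to 0.24. F13b, the carrier subunit of the fibrin cross-linking enzyme, read 11.95, 11.80 and 12.09 in control and 12.05, 12.10 and 11.99 in source water (0.10 ± 0.11). Plg, the precursor of plasmin, differed by 0.02 ± 0.10.

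Fga, Fgb and Fgg encode the 3 chains of fibrinogen and lie side by side on chromosome 3. Fga read 13.80, 14.05 and 13.59 in control and 13.94, 13.16 and 13.98 in source water. Fgb read 14.20, 14.37 and 14.23 in control and 14.40, 13.65 and 14.37 in source water. In both, source water pool 2 was lower than every other pool and the remaining source water pools lay within or just above the control range. Fgg read 14.31, 14.41 and 14.28 in control and 14.45, 14.31 and 14.42 in source water. Pool 2 was the lowest of its source water pools but lay inside its control range. Fgg also had the highest signal of the listed genes, and whether a compressed scale narrowed its spread was not tested.

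The group differences were -0.12 ± 0.23 for Fga, -0.12 ± 0.20 for Fgb and 0.06 ± 0.10 for Fgg. Without source water replicate 2 those of Fga and Fgb turned to 0.15 and 0.12. The SD over the source water pools was 0.46 for Fga and 0.43 for Fgb. The within-group SD, pooled over both groups, was 0.365 and 0.309, beside a median of 0.113 over the 38 genes.

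Fibrinogen is an acute phase protein, one of the plasma proteins that interleukin-6 raises in inflammation. Source water pool 2 was also the lowest of the 6 arrays for 11 of 21 acute phase genes, and the share over all genes was not counted. Others went the other way. Hamp, Crp, Cp and Saa4 lay above the mean of the other source water pools there, by 0.339, 0.0755, 0.0265 and 0.0205. Saa2, a serum amyloid A gene, read 13.42, 9.39 and 12.28 in source water pools 1 to 3 and 10.44 to 11.87 in control. Orm2, an orosomucoid gene, read 10.38, 7.81 and 10.66 in source water and 10.01 to 10.19 in control. Lcn2 and Fgl1 read 8.91 and 12.10 in that pool, against at least 10.10 and 13.03 in the other arrays. Between the groups 0 of 21 acute phase genes had an unadjusted p under 0.05, with a median difference of 0.00187. The precision was low, and the interval reached past 1.5-fold for 12 of the 21. It lay within 1.5-fold for 42.9% of them, against 81.2% of all genes. The part of the acute phase pattern in the fibrinogen values was not tested.

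**Figure D4:**
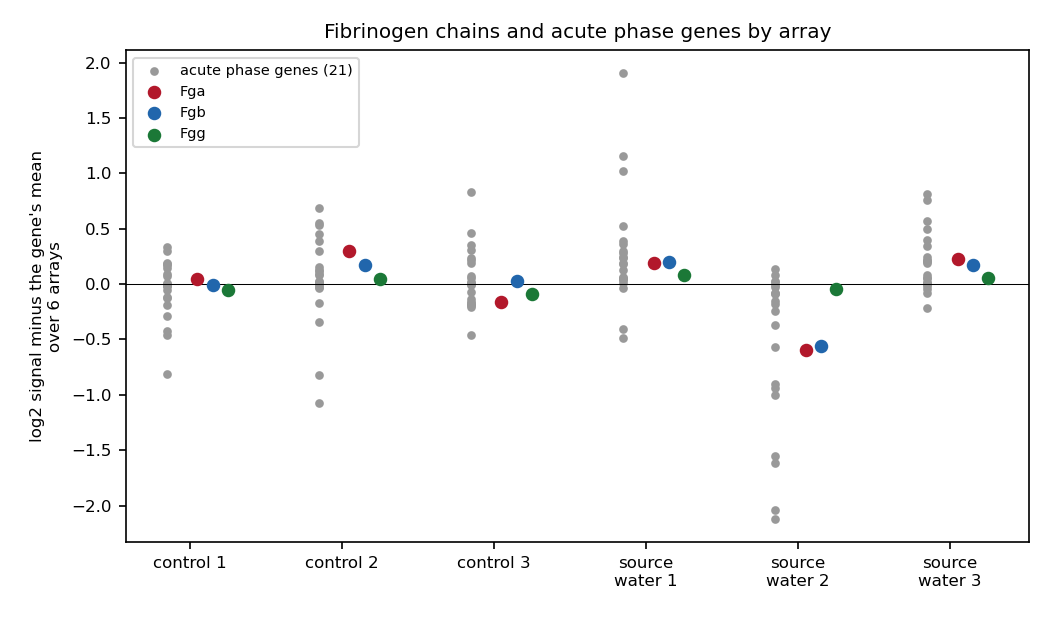
Log2 signal minus the gene's mean over the 6 arrays, for 21 acute phase genes (grey) and the fibrinogen genes Fga (red), Fgb (blue) and Fgg (green), by array. In source water pool 2, Fga and Fgb lie at -0.59 and -0.56 and Fgg at -0.05, and several acute phase genes lie lower still.

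The promoters of the 3 fibrinogen genes are shown as a description. Whether their motifs bear on the values in source water pool 2 was not tested. They are RefSeq sequences of build GRCm38.p6, 250 bases before to 50 after the annotated start, at chr3:83025903-83026202 on the + strand (Fga), chr3:83049814-83050113 on the - strand (Fgb) and chr3:83007474-83007773 on the + strand (Fgg). Capitals mark matches, on either strand, to GTTAAT (core of HNF1 sites), TTGCNNAA (C/EBP), CTGGGA (described in rat and human fibrinogen promoters as part of interleukin-6 response elements), TATAAA (the box near the start of many promoters), CAAAGTCCA (HNF4) or TTCNNNGAA (STAT).
Fga: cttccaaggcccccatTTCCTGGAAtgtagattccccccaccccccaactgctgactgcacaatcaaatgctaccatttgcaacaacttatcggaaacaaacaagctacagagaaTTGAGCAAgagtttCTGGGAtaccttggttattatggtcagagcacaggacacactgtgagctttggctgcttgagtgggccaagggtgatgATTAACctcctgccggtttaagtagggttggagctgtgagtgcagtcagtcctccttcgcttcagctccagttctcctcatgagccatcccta
Fgb: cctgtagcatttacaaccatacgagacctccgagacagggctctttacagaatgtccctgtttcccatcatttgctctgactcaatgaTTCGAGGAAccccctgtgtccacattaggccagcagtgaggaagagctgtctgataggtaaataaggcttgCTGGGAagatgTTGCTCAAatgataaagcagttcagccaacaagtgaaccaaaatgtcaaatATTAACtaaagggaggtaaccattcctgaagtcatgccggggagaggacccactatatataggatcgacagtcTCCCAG
Fgg: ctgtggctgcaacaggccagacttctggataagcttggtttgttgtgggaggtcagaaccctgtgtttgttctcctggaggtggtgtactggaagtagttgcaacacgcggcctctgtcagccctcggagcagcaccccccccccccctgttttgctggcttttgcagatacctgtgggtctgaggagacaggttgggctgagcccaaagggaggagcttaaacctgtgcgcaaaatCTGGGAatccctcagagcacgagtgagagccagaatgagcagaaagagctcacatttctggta

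Fga held a match to the HNF1, C/EBP, CTGGGA and STAT motifs at 43, 135, 121 and 234 bases before its start. Fgb held the same motifs at 29, 80, 91 and 162 bases before its start, with a further CTGGGA match, on the other strand, 45 bases into the transcript. Fgg held only a CTGGGA match, 13 bases before its start. No matches overlapped one another in these sequences. The table gave promoters for 30 of the 38 genes, 32 sequences in all. GTTAAT occurred in 31.2% of them and in 7.1% of all 32851 promoters, TTGCNNAA in 28.1% and 10.8%, TTCNNNGAA in 25% and 8.3%, and CTGGGA in 56.2% and 31.8%. TATAAA occurred in 9.38% and 13.6%, and CAAAGTCCA in 0 of the 32 and in 0.475% of all. A match is a description of letters and not a bound site.

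The promoters of Mbl1 (chr14:41151206-41151505, + strand), C9 (chr15:6445096-6445395, + strand) and C8b (chr4:104766067-104766366, + strand) are shown in the same way, since these genes had 3 of the largest differences. Each held a single match, to CTGGGA in Mbl1, to TTGCNNAA in C9 and to GTTAAT in C8b.
Mbl1: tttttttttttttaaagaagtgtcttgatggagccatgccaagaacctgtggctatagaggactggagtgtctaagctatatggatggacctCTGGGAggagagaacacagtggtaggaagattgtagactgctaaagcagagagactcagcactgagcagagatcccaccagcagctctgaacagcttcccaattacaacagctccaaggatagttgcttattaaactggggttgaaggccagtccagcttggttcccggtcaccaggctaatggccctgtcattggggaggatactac
C9: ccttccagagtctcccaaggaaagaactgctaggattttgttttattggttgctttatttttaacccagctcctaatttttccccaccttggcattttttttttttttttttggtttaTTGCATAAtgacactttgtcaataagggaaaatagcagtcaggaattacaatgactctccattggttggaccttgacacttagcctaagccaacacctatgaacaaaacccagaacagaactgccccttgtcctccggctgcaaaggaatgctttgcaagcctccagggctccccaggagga
C8b: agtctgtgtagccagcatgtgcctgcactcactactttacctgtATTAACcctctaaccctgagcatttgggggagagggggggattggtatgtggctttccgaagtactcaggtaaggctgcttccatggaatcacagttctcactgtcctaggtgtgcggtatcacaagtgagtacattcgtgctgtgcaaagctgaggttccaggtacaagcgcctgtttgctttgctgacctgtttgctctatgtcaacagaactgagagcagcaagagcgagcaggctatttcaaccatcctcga

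The inhibitors and regulators had the smallest median size of difference among the 3 classes, and 0 of 9 had an unadjusted p under 0.05. Their median signal, 12.73, was also the highest of the 3 classes. The size was 0.042 here and 0.0344 in the 8 hepatocyte markers. Serpinc1, antithrombin, read 14.15, 14.12 and 14.01 in control and 14.08, 14.10 and 14.15 in source water, a difference of 0.02 ± 0.10 with an interval from -0.21 to 0.25. Serpinf2, the plasmin inhibitor alpha2-antiplasmin, read 12.64, 12.79 and 12.52 in control and 12.94, 12.78 and 12.70 in source water (0.16 ± 0.12). Pros1, protein S, read 9.06, 9.12 and 9.27 in control and 9.32, 8.84 and 9.16 in source water (-0.04 ± 0.14). The groups overlapped in all 9 genes.

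Proc, the anticoagulant protease protein C, differed by -0.08 ± 0.10, and Serpind1, heparin cofactor II, by -0.03 ± 0.11. Serping1, the C1 inhibitor, which also blocks kallikrein, differed by 0.10 ± 0.11. Of the complement regulators, C4bp and Cfi, which together inactivate C4b, differed by -0.04 ± 0.10 and 0.01 ± 0.10. Vtn, vitronectin, which keeps terminal complexes from inserting, differed by 0.04 ± 0.11. Cfi had the smallest within-group SD of the 38 genes, 0.0354, and Fga the largest, 0.365.

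Several members are neighbours in the genome with no other protein-coding gene between them, 7 pairs in all. The sign of the difference was opposite within 5 of the 7 pairs, and none of these genes passed the limma test after adjustment. Apart from C8b, F7 and Klkb1, each of these differences was smaller than its SE. The share of opposite signs over all neighbouring genes was not counted. C8b differed by 0.38 and C8a by 0.01 on chromosome 4, F7 by -0.22 and F10 by 0.05 on chromosome 8, and F11 by -0.09 and Klkb1 by 0.14, also on chromosome 8. Cfb and C2 on chromosome 17 differed by 0.07 and -0.05.

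Of the arrays, control pool 3 stood slightly low. It was the lowest of the 6 for 20 of the 38 genes, and the share of all genes lowest in it was not counted. The median deviation from the gene's mean was -0.0889 there and between 0.00148 and 0.0378 in the other arrays. In control pool 3 it was -0.019 for 8 hepatocyte markers and -0.0318 for 12 hepatocyte transcription factors. The median deviation of 12 macrophage markers was 0.302 in that pool and 0.345 in source water pool 2, where that of the 38 genes was 0.0201. Their mean log2 level ran from 8.72 to 9.63 in control and from 9.002 to 9.467 in source water. Their median difference was 0.246, with 9 of 12 higher and 0 at an unadjusted p of 0.05 (limma). For 11 of the 12 the interval reached past 1.5-fold. The 9 endothelial markers ran from 6.86 to 7.25 and from 7.08 to 7.33. Of these, 1 passed the unadjusted threshold, the sinusoidal scavenger receptor Stab2, with a difference of 0.39 (limma unadjusted p = 0.00691, adjusted p = 0.439).

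The 8 stellate cell markers had a mean level that did not overlap between the groups, from 6.69 to 6.86 in control and from 6.96 to 7.13 in source water. This mean includes Col3a1, whose difference was the largest of the 8, and it was not computed without that gene. The median deviation from the gene's mean ran from -0.19 to -0.0717 in control and from 0.0495 to 0.165 in source water. Signs were mixed, with 5 higher and 3 lower. Of the 8, 3 (37.5%) had an unadjusted p under 0.05, against 6.76% of all genes, and 0 passed after adjustment (limma). The fibrillar collagen genes Col3a1 and Col1a2 were higher, by 1.33 (limma unadjusted p = 0.00114, adjusted p = 0.202) and 0.50 (limma unadjusted p = 0.0039, adjusted p = 0.373). Lrat, the retinol-esterifying enzyme of these cells, was lower by a signed difference of -0.27 (limma unadjusted p = 0.0287, adjusted p = 0.71). Col1a1 and Des differed by -0.04 and -0.06. The 6 platelet markers ran from 5.75 to 6.05 in control and from 5.91 to 6.05 in source water. The part of these cells in the values of the 38 genes was not tested.

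Other genes of both systems were taken from lists of receptors, initiators, inhibitors and cofactors. The whole interval lay within 1.5-fold for 85.7% of the further coagulation genes and 68.4% of the further complement genes. Over all genes this share was 81.2%. Of 21 further coagulation genes, 1 had an unadjusted p under 0.05, higher, and 0 passed after adjustment. This was Tfpi2, a Kunitz-type protease inhibitor related to the tissue factor inhibitor, which read 9.37, 9.55 and 9.62 in control and 9.81, 9.74 and 10.12 in source water. All source water pools lay above all control pools (0.38 ± 0.13, limma unadjusted p = 0.0229, adjusted p = 0.676). Vkorc1 and Ggcx, which supply the vitamin K-dependent modification that F2, F7, F9, F10, Proc and Pros1 need, differed by 0.18 ± 0.13 and 0.15 ± 0.12.

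Of 19 further complement genes, 0 had an unadjusted p under 0.05, 12 were higher and 7 lower. C1qa, C1qb and C1qc, which macrophages produce, differed by 0.29 ± 0.25, 0.32 ± 0.21 and 0.24 ± 0.21. These genes and Vsig4 are also among the macrophage markers above, so the 2 lists are not separate observations. Itgb2, the shared chain of the complement receptors of leukocytes, differed by 0.51 ± 0.22 with overlapping groups (limma unadjusted p = 0.0515). Its interval ran from -0.004 to 1.03. Of 12 transcription factors that govern hepatocyte genes, 0 had an unadjusted p under 0.05, with 6 higher and 6 lower. Hnf4a differed by 0.04 ± 0.13, Cebpa by -0.10 ± 0.12 and Stat3 by 0.27 ± 0.13. The largest in size were Onecut1 and Foxa2, at -0.43 ± 0.44 and -0.34 ± 0.19 with overlapping groups. For 4 of the 12 the interval reached past 1.5-fold.

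In the authors' deposited table, Masp1, Hc and Mbl1 had a p-value under 0.05 (0.0127, 0.0378 and 0.0442), with signed fold changes of -1.28, 1.18 and 1.28. C9 had a p-value of 0.075 in the authors' deposited table. The labels do not name the test behind these p-values. The share of all genes under 0.05 in that deposited table was not counted, so these p-values have no background to be read against.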

How the data were processed

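One log2 signal was deposited per probe set and array, and per the submitters' processing notes the authors used RMA and Partek, with no versions. The authors' deposited table adds p-values, ratios and signed fold changes, of which p-values and fold changes are quoted. Of 22690 probe sets, 64 controls were left out. Names came from the platform annotation. Source water and control, 3 arrays each, were compared with limma 3.58.1 in R 4.3.3 (lmFit, eBayes) with Benjamini-Hochberg adjustment over 22626 probe sets, and intervals are 95% from the moderated SE. The script was tested on simulated data. Each array is a pool of 3 livers, so p-values measure the spread between pools, and the number of arrays limits the precision. Full values are given for the 12 members of smallest unadjusted p, members without overlap and with a difference of at least 0.3, and the 3 highest and lowest in signal. Fga, the motifs, the second Masp1 probe set and genes of other lists named for their role were added after their values were seen. Members and lists were chosen with earlier results of these data known. Deviations of same-numbered arrays had correlations of -0.073, 0.28 and 0.17. The highest correlation of each control array with a source water array of another number was 0.43, 0.27 and 0.046. These values do not settle whether the numbers are pairs. Nothing in the labels says that they mark a shared batch, so they were not taken as pairs. The 13 alternatives were a replicate block, another normalization, centring, a dim-signal filter, 2 variance models, probe set means and leaving out each array.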

Additional observations from a re-analysis of the deposited data

How the results depend on the processing

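All alternatives were planned. The 38 genes had 0 past the adjusted limma threshold under each of the 13 alternatives, with 1 to 4 at an unadjusted p of 0.05 against 3 with all arrays. That count was 1 without source water replicate 1 (C9) and 1 without source water replicate 3 (Mbl1), and 1 to 4 when each array was left out in turn. The median complement difference, 0.0152 with all arrays, ran from 0.00655 to 0.0793 in those runs. The median over the 38 genes ran from -0.00202 to 0.0405. Against 9 probe sets past the adjusted threshold over the whole table, the fit with a replicate block called 45, a repeated quantile normalization 30, limma-trend 35 and the unmoderated statistic 0, and leaving out an array gave 0 to 14. With the replicate block 4 of the 38 genes had an unadjusted p under 0.05, with C8b in addition (limma), and no call after adjustment changed. Masp1 differed by 0.0187 with the mean of its probe sets in place of -0.361, since its probe sets oppose one another. Uncalled differences changed sign when single arrays were left out, within -0.254 to 0.122 for Fgb, -0.146 to 0.0959 for Pros1, -0.205 to 0.0414 for F11 and -0.024 to 0.0427 for Serpinc1.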
